A study of Mus musculus with 12 samples.

Results

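The 8 genes described here encode enzymes that desaturate or elongate fatty acids: Scd1, Scd2, Fads1, Fads2, Elovl1, Elovl5, Elovl6 and Elovl7. They were chosen by name, as all probes of the array whose annotation gives 1 gene symbol equal to one of these names. The rule found 10 of 36227 probes, for 8 of the 18069 genes with such a probe. Fads2 and Elovl7 had 2 probes each, and the other genes 1. Whole ovaries were measured on 12 CodeLink arrays, one per female mouse, with 3 separate mice in each of 4 groups. LY mice aged 180 days and LY mice aged 90 days carry the lethal yellow agouti mutation (Ay/a), and black mice of the same ages (a/a) are their controls. The labels spell the strain C56BL/6J. Both genotypes at both ages received the GnRH antagonist Antide at 10 µg per g on days 1 and 4, then equine chorionic gonadotropin at 1 IU per 5 g body weight, and ovaries were collected on day 7. In Ay mice a deletion puts the agouti gene under the promoter of Raly, so that agouti is expressed in all tissues, the ovary included. The genotype is therefore a model of obesity in which the ovary itself also expresses agouti RNA. Agouti protein was not measured.

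Fatty acid synthase ends at palmitate, a saturated chain. Elongases on the endoplasmic reticulum add carbons to palmitate and to fatty acids from the diet, and desaturases insert double bonds with electrons passed on by cytochrome b5. In the ovary the products enter membranes, the lipid droplets and cholesteryl esters of steroid-making cells, and the arachidonate pool from which prostaglandins are made at ovulation. Many of these genes are known targets of the SREBP transcription factors and of the liver X receptor in other tissues.

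Promoter sequence was at hand for 5 of the 8 genes, from RefSeq on the build GRCm38.p6, as windows of 300 bases that run 250 bases before to 50 bases after a gene start. Those of Elovl5, Elovl1 and Fads2 are shown, since the results at 180 days turn on these genes and Fads1. Capitals mark 4 motifs found on either strand: CCAAT (the box bound by NF-Y, ATTGG on the other strand), CACGTG (an E-box), GGGCGG (a GC box, CCGCCC on the other strand) and TCACNCCAC (a sterol response element). The windows are chr9:77917115-77917414 on the plus strand for Elovl5, chr4:118427843-118428142 on the plus strand for the first of 2 starts of Elovl1, and chr19:10101454-10101753 on the minus strand for Fads2.
Elovl5: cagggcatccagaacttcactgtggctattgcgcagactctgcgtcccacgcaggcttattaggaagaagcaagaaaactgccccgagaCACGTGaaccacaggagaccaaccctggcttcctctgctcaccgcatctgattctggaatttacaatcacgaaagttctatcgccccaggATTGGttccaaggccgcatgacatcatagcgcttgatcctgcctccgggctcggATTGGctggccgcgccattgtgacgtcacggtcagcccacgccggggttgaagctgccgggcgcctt
Elovl1: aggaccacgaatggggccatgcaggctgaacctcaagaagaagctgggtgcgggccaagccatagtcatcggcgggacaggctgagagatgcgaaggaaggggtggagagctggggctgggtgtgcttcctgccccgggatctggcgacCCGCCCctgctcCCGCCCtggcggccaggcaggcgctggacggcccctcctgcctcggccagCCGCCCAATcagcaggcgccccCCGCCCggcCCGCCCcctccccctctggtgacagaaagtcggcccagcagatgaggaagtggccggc
Fads2: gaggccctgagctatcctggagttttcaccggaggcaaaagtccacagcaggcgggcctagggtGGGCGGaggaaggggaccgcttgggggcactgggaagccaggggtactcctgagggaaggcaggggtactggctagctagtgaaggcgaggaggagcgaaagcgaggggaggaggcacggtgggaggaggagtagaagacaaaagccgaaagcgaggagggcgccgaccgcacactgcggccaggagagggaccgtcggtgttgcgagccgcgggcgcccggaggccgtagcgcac
The Elovl5 window held 2 CCAAT boxes and 1 E-box. The Elovl1 window held 5 GC boxes and 1 CCAAT box, which overlaps one of them, and the Fads2 window held 1 GC box. TCACNCCAC was in none of the 6 windows of these genes. Of all 32851 promoter windows of this length, 37.4% held CCAAT, 7.15% CACGTG, 35.7% GGGCGG and 1.24% TCACNCCAC, so a match is a description of the window only. Fads1 and Fads2 are neighbours on chromosome 19, with 0 protein-coding genes between them, and Scd1 and Scd2 lie on the same chromosome with Scd4 between them. Elovl1 lies on chromosome 4, Elovl5 on 9, Elovl6 on 3 and Elovl7 on 13.

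The agouti probe read 96.7, 101 and 111 units in LY mice of 180 days, against 0.169, 0.368 and 0.345 units in black mice of that age. At 90 days it read 95.7, 99.2 and 96.8 units in LY mice and 0.28, 0.313 and 0.291 units in black mice. Both Raly probes were lower in every LY mouse than in any black mouse of its age. All 12 arrays thus matched their genotype labels. A unit is the median probe of the array, and 0.2 units is the limit of sensitivity the study set. All 10 probes were above that limit on all 12 arrays, so that none of the 8 genes is missing from what follows. Arrays correlated at 0.970 to 0.987 within a group and at 0.918 to 0.938 between the ages. Age and the set of arrays run for it cannot be told apart. Markers of granulosa cells, theca cells and oocytes were all detected, as the ovary should show.

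At 180 days the polyunsaturated fatty acid desaturases Fads1 and Fads2 and the elongases Elovl5 and Elovl1 read higher in every LY mouse than in any black mouse. The differences ran between 1.24-fold for Elovl1 and 1.90-fold for Fads2. Elovl7 lay the other way, and Scd1, Scd2 and Elovl6 overlapped. None of the 8 genes passed an adjusted p of 0.05 in limma, where 14 of 31359 probes did (0.0446%). At an unadjusted p under 0.05, limma took 4 of the 8, all higher in LY mice (7.05% of all probes, with 4.91% lower), and the methods' t-test 3, also higher (9.1% of probes). The estimate was higher in LY mice for 7 of the 8, and for 55.9% of probes. Of all probes, 14.2% were higher in LY mice without overlap and 8.36% lower. The median log2 difference of the 8 genes was 0.26, beside 0.04 over all genes tested.

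**Figure D1:**
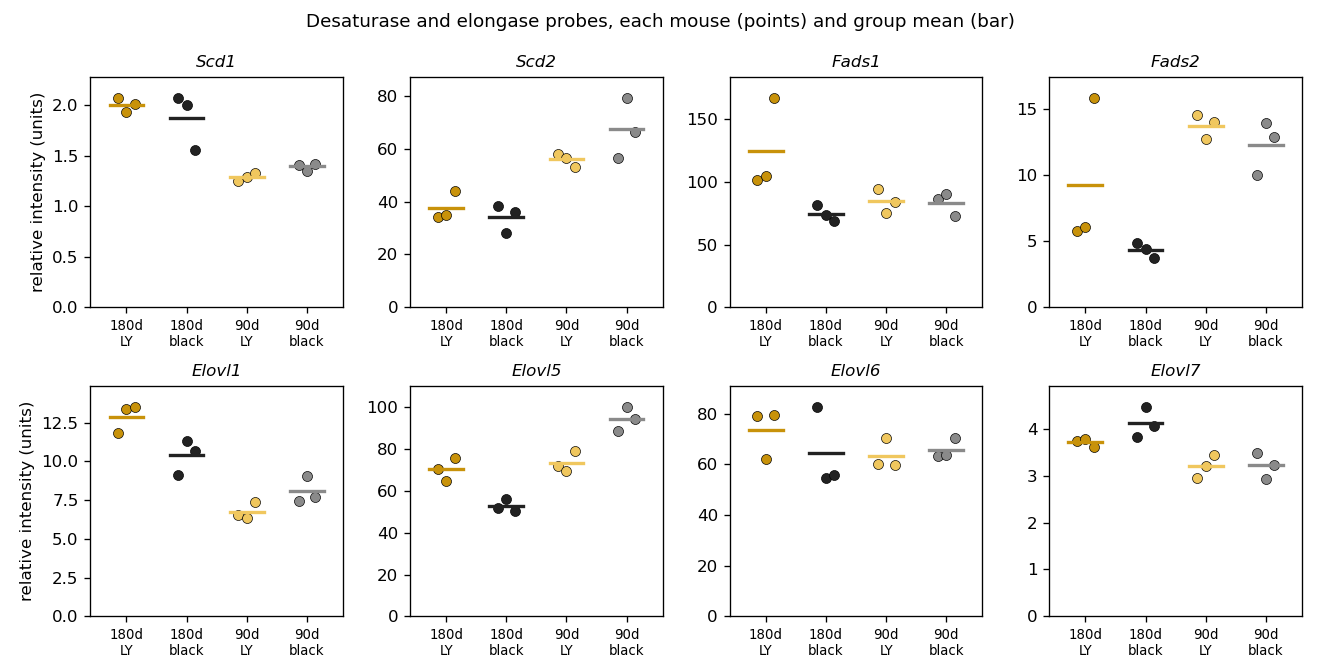
Relative intensity (units, linear axis from 0) of the main probe of each gene in each mouse (points), with the group mean (bar), for LY and black mice of 180 and 90 days. Elovl5 and Elovl1 lie above the black mice at 180 days and below them at 90 days, and 1 LY mouse of 180 days stands high for Fads1 and Fads2.

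Summed markers of granulosa cells, oocytes and adrenal cortex also did not overlap between the genotypes at 180 days. In bulk ovary, fewer cells of a type and less RNA per cell cannot be told apart. The summed granulosa cell markers, 9 genes led by Inha, Inhba and Hsd17b1, were 182 to 244 units in LY mice and 257 to 337 units in black mice of 180 days, and 292 to 429 units in LY mice and 297 to 400 units in black mice of 90 days. The 10 oocyte markers, led by Zp3, Oosp1 and Zp1, summed to 43.6 to 59.8 units in LY mice and 61.7 to 80.5 units in black mice of 180 days. The 5 theca and interstitial markers, led by Hsd3b1, Cyp17a1 and Cyp11a1, summed to 463 to 606 units in LY mice and 397 to 479 units in black mice. The 3 adrenal cortex markers summed to 0.82 to 0.996 units in LY mice and 0.586 to 0.794 units in black mice of 180 days. All 3 had higher estimates in LY mice, though each overlapped. Those sums of 3 genes were low beside the limit of sensitivity, 0.2 units for a single gene. None of the granulosa, oocyte, theca and adrenal markers passed in limma at 180 days. At an unadjusted p under 0.05 limma took 3 granulosa and 4 oocyte markers as lower in LY mice (4.91% of all probes). It took 2 theca markers and 1 adrenal marker as higher (7.05% of probes). The methods' t-test took 0, 2, 2 and 0 markers of these lists. The part of these cell types in the differences of the 8 genes was not tested.

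Adipocyte markers, 8 genes of which Lipe was under 0.2 units on every array, summed to 38.8 to 43.2 units in LY mice and 34.4 to 67.3 units in black mice of 180 days, and to 15.4 to 52.3 units in LY mice and 20.8 to 78.9 units in black mice of 90 days. At 180 days the genotypes overlapped for 6 of the 7 tested genes. Adipoq, the defining marker, read 3.99, 2.26 and 3.15 units in LY mice and 2.80, 1.65 and 10.2 units in black mice of 180 days. Lep, which encodes leptin and was picked after its values were seen, read 0.31, 0.223 and 0.442 units in LY mice of 180 days and 0.00189, 0.0677 and 0.08 units in black mice. It was higher in every LY mouse, with all black mice under the limit of sensitivity (adjusted p = 0.307 in limma). The part of adherent fat in the differences of the 8 genes was not tested.

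Fads1 (the desaturase that makes arachidonate from its precursor) read 102, 105 and 167 units in LY mice of 180 days, against 82.0, 73.4 and 69.1 units in black mice. The third LY mouse stood far above the other two, but all 3 lay above the black mice. The log2 difference was 0.70 ± 0.18 (SE, adjusted p = 0.202 in limma). Without that LY mouse it was 0.47, and after quantile normalization of all arrays 0.96 ± 0.18 (SE, adjusted p = 0.104 in limma).

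Fads2 (the desaturase of the first step from linoleate and alpha-linolenate) read 5.78, 6.04 and 15.8 units in LY mice of 180 days, against 4.85, 4.44 and 3.74 units in black mice. The third LY mouse stood far above the others, and the groups did not overlap. The log2 difference was 0.93 ± 0.32 (SE, adjusted p = 0.307 in limma), and 0.45 without LY replicate 3. In that mouse the leukocyte gene Ptprc, picked after its values were seen, also read 4.38 units, against 0.72 and 0.986 units in the other LY mice and 0.895, 2.05 and 1.04 units in black mice. The summed macrophage and leukocyte markers, 4 measured genes, were 29.8, 55.9 and 50.5 units in LY replicates 1, 2 and 3 of 180 days. On that sum LY replicate 3 was thus not the highest mouse. In black mice of 180 days these markers summed to 35.4 to 55.9 units, and their part in the Fads2 value was not tested. The second Fads2 probe read 0.363, 0.386 and 0.398 units in LY mice and 0.332, 0.31 and 0.25 units in black mice. It gave a log2 difference of 0.37 ± 0.14 (SE, adjusted p = 0.327 in limma), and on it LY replicate 3 did not stand apart.

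Elovl5 (the elongase of polyunsaturated chains, which acts between Fads2 and Fads1) read 70.5, 64.7 and 75.6 units in LY mice of 180 days, against 51.7, 56.1 and 50.6 units in black mice. The gap between the lowest LY and the highest black mouse exceeded the range within black mice but not that within LY mice. The log2 difference was 0.41 ± 0.09 (SE, adjusted p = 0.154 in limma), and 0.16 ± 0.08 after quantile normalization. Elovl1 (an elongase of saturated and monounsaturated very long chains, which supplies ceramides) read 11.8, 13.4 and 13.5 units in LY mice and 9.15, 11.3 and 10.7 units in black mice. The groups were close together but did not overlap, with a log2 difference of 0.31 ± 0.12 (SE, adjusted p = 0.334 in limma).

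The stearoyl-CoA desaturases, which make oleate and palmitoleate, did not separate the genotypes at 180 days. Scd1 averaged 2.00 ± 0.0694 units in LY mice and 1.88 ± 0.274 units in black mice (SD, n = 3 each), a log2 difference of 0.10 with a 95% interval of -0.13 to 0.34. Scd2 averaged 37.6 ± 5.41 units in LY mice and 34.2 ± 5.41 units in black mice, with a log2 interval of -0.21 to 0.49. Elovl6, which extends palmitate to stearate, averaged 73.5 ± 10.0 units in LY mice and 64.3 ± 15.8 units in black mice, with a log2 interval of -0.15 to 0.58. A doubling of any of these 3 genes thus lay outside its interval.

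Elovl7 (an elongase of saturated very long chains) gave different answers on its 2 probes. The main probe read 3.74, 3.79 and 3.61 units in LY mice of 180 days and 3.83, 4.46 and 4.05 units in black mice. All LY mice lay just below the black mice, with a log2 difference of -0.15 ± 0.10 (SE, adjusted p = 0.594 in limma). The second probe read 0.631, 0.686 and 0.82 units in LY mice and 0.622, 0.551 and 0.649 units in black mice. Those groups overlapped, and the log2 difference was 0.22 ± 0.14 (SE, adjusted p = 0.547 in limma), so no direction can be given for this gene.

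At 90 days none of the 8 genes was higher in LY mice without overlap. Of the 8, 2 had a higher estimate in LY mice, beside 49.1% of probes, and Scd1, Elovl1 and Elovl5 were lower in every LY mouse than in any black mouse. The background was 9.56% of probes lower without overlap and 6.90% higher. None of the 8 passed an adjusted p of 0.05 in limma (0.0446% of probes did). At an unadjusted p under 0.05 limma took 1 of the 8, Elovl5, lower in LY mice (8.06% of probes, with 5.21% higher), and the methods' t-test 2, Elovl5 and Scd1, both lower (5.63% of probes). After quantile normalization 1 of the 8, Elovl5, was below the black mice without overlap (7.80% of probes), and 1, Fads2, above them (8.04%), which is near the background. Summed markers of the ovarian surface epithelium, 6 genes, were also lower without overlap at 90 days, at 10.1 to 11.6 units in LY mice and 13.8 to 18.0 units in black mice, with 5 of the 6 lower at an unadjusted p under 0.05 in limma. The 3 luteal cell markers summed to 172 to 213 units in LY mice and 217 to 244 units in black mice. They include Hsd3b1, which is also among the theca markers, so that sum is not of luteal cells alone. The part of these cells in the 90-day differences was not tested.

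Elovl5 read 71.9, 69.6 and 78.9 units in LY mice of 90 days, against 88.5, 100 and 94.3 units in black mice. The LY mice were lower, with a gap to the nearest black mouse wider than the range within LY mice but narrower than that within black mice. The log2 difference was -0.36 ± 0.09 (SE, adjusted p = 0.156 in limma), and -0.20 after quantile normalization (adjusted p = 0.360 in limma). Elovl1 read 6.53, 6.35 and 7.40 units in LY mice and 7.47, 9.07 and 7.71 units in black mice. Its groups lay next to each other, with a log2 difference of -0.26 ± 0.12 (SE, adjusted p = 0.380 in limma).

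Scd1 read 1.25, 1.29 and 1.33 units in LY mice of 90 days and 1.41, 1.35 and 1.42 units in black mice. The spread within both groups was small here, and the log2 difference was -0.11 ± 0.11 (SE, adjusted p = 0.704 in limma). Scd2 averaged 55.9 ± 2.60 units in LY mice and 67.3 ± 11.3 units in black mice (SD, n = 3 each), and the groups overlapped. Fads1 averaged 84.7 ± 9.84 units in LY mice and 83.2 ± 9.16 units in black mice, a log2 difference of 0.02 with a 95% interval of -0.38 to 0.43. Fads2 averaged 13.7 ± 0.954 units in LY mice and 12.3 ± 2.06 units in black mice on its main probe, with a log2 interval of -0.54 to 0.89. Elovl6 averaged 63.3 ± 6.15 units in LY mice and 65.8 ± 3.88 units in black mice. The Elovl7 probes gave log2 differences of -0.01 and -0.20 with intervals that held 0.

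**Figure D2:**
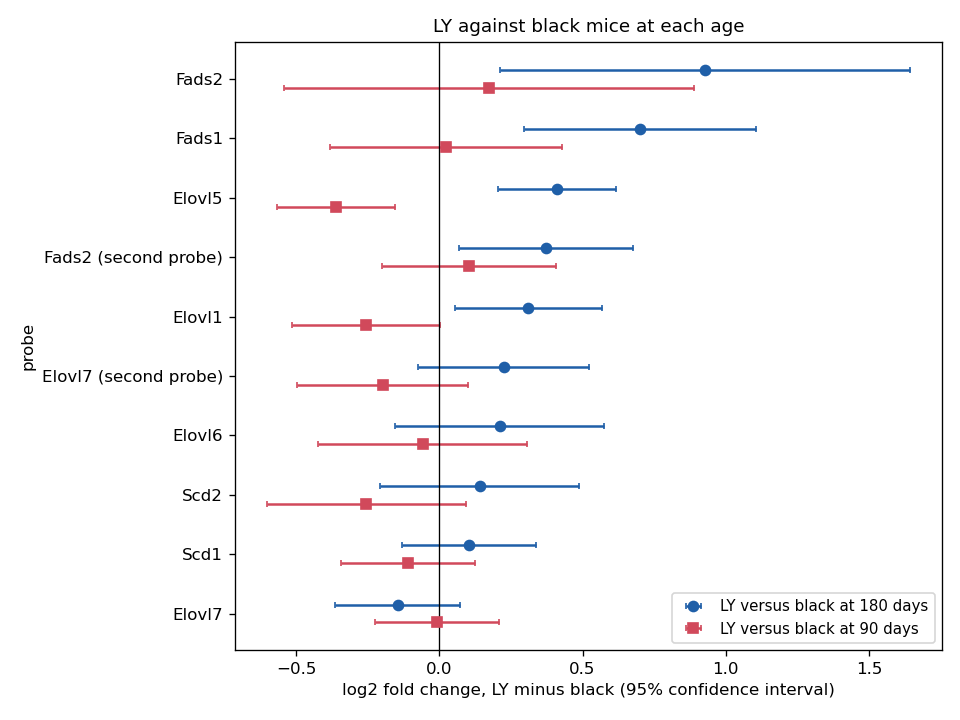
Log2 fold change of LY minus black mice (x axis) for each of the 10 probes (y axis) at 180 days (blue circles) and 90 days (red squares), with 95% confidence intervals from limma. For Elovl5 the interval lies above 0 at 180 days, 0.20 to 0.62, and below 0 at 90 days, -0.57 to -0.15. After quantile normalization, not drawn, the 180-day interval of Elovl5 is -0.02 to 0.35 and holds 0.

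Whether the difference between the genotypes changed with age was tested for each gene as the difference at 180 days minus the difference at 90 days. Elovl5 gave a log2 value of 0.77, with a 95% interval of 0.48 to 1.06. Its adjusted p was 0.0879 in limma, 0.0216 where the spread was modelled with an intensity trend, and 0.280 after quantile normalization, where the value was 0.37. Elovl1 gave 0.57 (interval 0.20 to 0.93, adjusted p = 0.207 in limma) and Fads1 0.68 (interval 0.10 to 1.25, adjusted p = 0.325 in limma). None of the 8 genes passed the adjusted threshold in limma and neither did any of the other probes tested (0 of 31359), while 3 of the 8 had an unadjusted p under 0.05 with a higher value at 180 days, beside 8.01% of all probes. Elovl1 and Elovl5 were above every black mouse at 180 days and below every black mouse at 90 days, a pattern that 1.82% of probes showed. After quantile normalization only Elovl5 kept it, since Elovl1 then overlapped at 90 days. The value was above 0 for 7 of the 8 genes (54.1% of probes), the exception being the main Elovl7 probe.

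Over both ages together, Fads1 and Fads2 gave mean log2 differences of 0.36 ± 0.13 and 0.55 ± 0.23 (SE), with adjusted p of 0.288 and 0.348 in limma. The other 6 genes lay between -0.08 and 0.08. None of the 8 passed the adjusted threshold in limma, which 2 probes did (0.00638%). At an unadjusted p under 0.05 limma took 2 of the 8 genes, Fads1 and Fads2, beside 6.39% of probes higher.

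Next the ages were compared within each genotype. In LY mice 4 of the 8 passed an adjusted p of 0.05 in limma (47.2% of probes did), and in black mice 6 (46.8% of probes). In LY mice 3 of the 8 were higher at 180 days and 1 lower, beside 27.9% and 19.3% of probes, and in black mice 3 were higher and 3 lower, beside 25.9% and 20.9%. Scd1 and Scd2 went opposite ways in both genotypes. Scd1 was higher at 180 than at 90 days, by 0.63 in LY mice (adjusted p = 0.000668 in limma) and by 0.42 in black mice (adjusted p = 0.00789 in limma) on the log2 scale. Scd2 was lower at 180 days, with log2 differences of -0.58 in LY mice (adjusted p = 0.0113 in limma) and -0.98 in black mice (adjusted p = 0.000539 in limma). Both directions also held after quantile normalization.

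Elovl1 was higher at 180 days, by 0.93 in LY mice (adjusted p = 9.93e-05 in limma) and by 0.36 in black mice (adjusted p = 0.0259 in limma). The call in black mice was lost without 180d black replicate 2 or 3 or 90d black replicate 1 or 3, with adjusted p up to 0.0941, on the values as deposited (0.0508) and with array weights (0.0524). Fads2 was lower at 180 days in black mice, with log2 differences of -1.49 on the main probe and -0.51 on the second (adjusted p = 0.0034 and 0.0110 in limma). In LY mice its log2 difference was -0.74 (adjusted p = 0.0839 in limma) and -1.21 without 180d LY replicate 3 (adjusted p = 0.000284 in limma). Elovl5 was lower at 180 days in black mice, by a log2 difference of -0.84 (adjusted p = 4.44e-05 in limma). In LY mice the Elovl5 value was -0.06 with an interval of -0.27 to 0.14.

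The age differences of the high-reading genes depended on the normalization. Among the 5% of probes with the highest mean level, 1568 probes, the median log2 difference between 180 and 90 days was 0.71 in LY mice and 0.48 in black mice, beside 0.08 and 0.04 over all probes. After quantile normalization it was 0.11 in LY mice and 0.06 in black mice. Scd2, Fads1, Elovl5 and Elovl6 belong to these probes. Fads1 was higher at 180 days in LY mice by 0.53 (adjusted p = 0.0363 in limma) but by 0.01 after quantile normalization, and in black mice its log2 difference was -0.15 and then -0.86 (adjusted p = 0.00271 in limma). Without 180d LY replicate 3 the LY value was 0.30, and the call was also lost without 90d LY replicate 2 or 3, on the values as deposited (adjusted p = 0.0566 in limma) and with a replicate block (0.0579). Elovl5 in LY mice gave -0.92 after quantile normalization. Elovl6 gave 0.21 in LY mice and -0.06 in black mice, and -0.75 and -0.79 after quantile normalization, both of them past the threshold. The other genes, Scd1, Fads2, Elovl1 and the main probe of Elovl7, moved by no more than 0.09 between the normalizations. That Elovl7 probe was 0.35 higher at 180 days in black mice (adjusted p = 0.0128 in limma, 0.0525 without 180d black replicate 2), while its second probe was lower, at -0.58 (adjusted p = 0.00494 in limma).

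**Figure D3:**
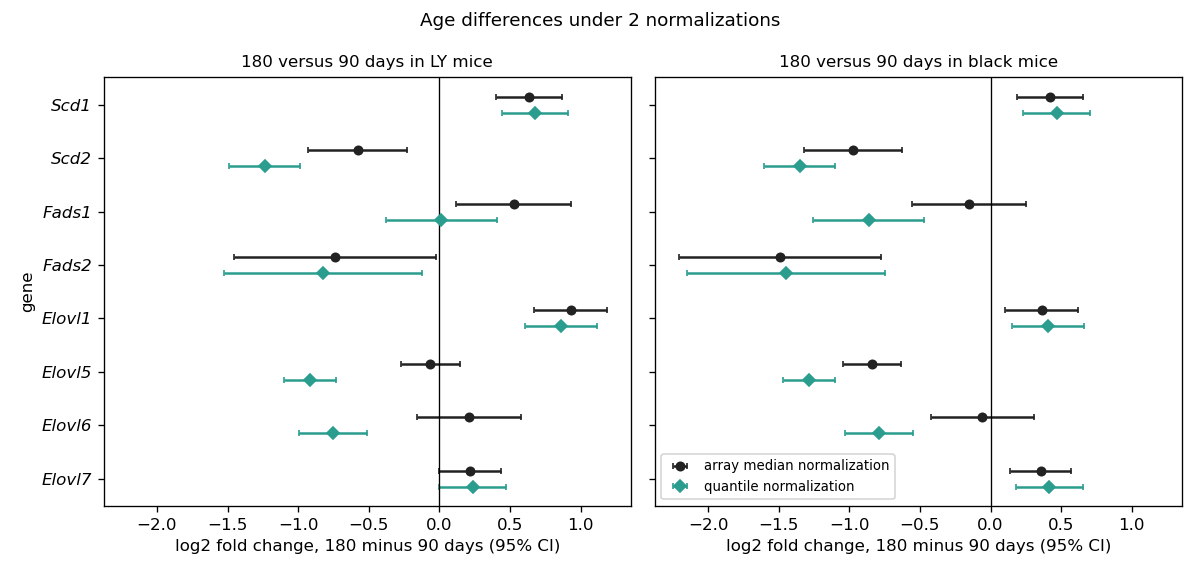
Log2 fold change of 180 minus 90 days (x axis) for each gene (y axis) in LY mice (left) and black mice (right), with 95% confidence intervals, after division by the array median (black circles) or quantile normalization (green diamonds). Scd2, Fads1, Elovl5 and Elovl6 shift to lower values after quantile normalization, while Scd1, Fads2, Elovl1 and Elovl7 stay in place.

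Of the remaining desaturases and elongases of the array, 8 genes, none was above the black mice at 180 days and below them at 90 days. In limma 0 of 8 passed in either direction at both ages. At an unadjusted p under 0.05, limma took 1 gene at 180 days, Elovl2, which was lower in LY mice (4.91% of all probes). At 90 days it took 1 higher and 1 lower (5.21% and 8.06% of probes). The methods' t-test took 1 at each age, at 180 days a gene higher in LY mice (9.1% of probes) and so not Elovl2. Without overlap, 2 genes of this list were higher and 1 lower at 180 days (14.2% and 8.36% of probes). At 90 days 0 were higher and 1 lower (6.90% and 9.56% of probes). The median log2 difference of the 8 genes of this list was 0.02 at 180 days and 0.10 at 90 days. Elovl2, which extends the longest polyunsaturated chains, read 0.725, 0.542 and 0.684 units in LY mice of 180 days and 1.16, 0.773 and 0.993 units in black mice. At 90 days it read 2.03, 2.21 and 1.31 units in LY mice and 1.07, 1.34 and 1.48 units in black mice. It was thus lower in every LY mouse at 180 days and overlapped at 90 days, with log2 differences of -0.58 and 0.49, and the change with age was -1.06 (adjusted p = 0.212 in limma). Elovl3, an elongase known from skin and brown fat, gave 0.26 and 0.29 at the 2 ages. Fads3, a relative of Fads1 and Fads2, gave 0.04 at 180 days and -0.48 at 90 days (adjusted p = 0.150 in limma), and was picked after its values were seen.

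Among the enzymes that complete an elongation cycle after the elongase, 5 of 6 had a higher estimate at 180 days, with a median log2 difference of 0.28, and 0 of 6 had one at 90 days, with a median of -0.17. Over all genes tested the medians were 0.04 and -0.03. None passed in limma at either age. At an unadjusted p under 0.05 at 180 days limma took 2 of the 6, higher in LY mice (7.05% of all probes). The methods' t-test took 3, also higher (9.1% of probes), and each test took 0 at 90 days. Tecr, the last enzyme of the cycle, read 61.8, 64.8 and 60.9 units in LY mice of 180 days and 53.0, 49.9 and 47.5 units in black mice. At 90 days it read 40.1, 37.7 and 42.2 units in LY mice and 44.0, 43.8 and 42.7 units in black mice. LY mice were above the black mice at 180 days and below them at 90 days, with log2 differences of 0.32 (adjusted p = 0.173 in limma) and -0.12 (adjusted p = 0.549 in limma), or 0.12 and 0.0029 after quantile normalization. Hsd17b12, which carries out the first reduction of the cycle, gave 0.57 at 180 days (adjusted p = 0.272 in limma) and -0.25 at 90 days. The dehydratases Hacd1 and Hacd3 gave 0.23 and 0.34 at 180 days.

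Of the proteins that bring electrons to the desaturases, 5 genes were tested and 0 passed in limma. At an unadjusted p under 0.05 at 180 days limma took 1, higher in LY mice (7.05% of all probes), and the methods' t-test 0. Cyb5r3, the reductase of cytochrome b5, gave a log2 difference of 0.43 at 180 days (adjusted p = 0.278 in limma) and -0.37 at 90 days, where 1 black mouse had no value. Cyb5b gave 0.23, Cyb5r1 0.18 and Cyb5a, the microsomal cytochrome b5, -0.14 at 180 days.

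Upstream, 1 of 8 genes of palmitate synthesis passed in limma at 180 days, higher in LY than in black mice (0.0446% of probes passed). Me1, the malic enzyme that makes NADPH for fatty acid synthesis, read 98.5, 113 and 126 units in LY mice and 62.2, 54.8 and 60.6 units in black mice. Every LY mouse was above every black mouse by a wide gap. Its log2 difference was 0.92 ± 0.12 (SE, adjusted p = 0.0348 in limma), and -0.27 at 90 days (adjusted p = 0.370 in limma). The call held without 180d LY replicate 1 or 90d LY replicate 3 and was lost without any one of the other 10 arrays, with adjusted p up to 0.144. It was also lost without the filter on low values (0.0696), with the arrays of that age alone (0.177) and with a replicate block (0.0742). Acly, which makes cytosolic acetyl-CoA, gave 0.59 at 180 days and -0.43 at 90 days. Slc25a1, which exports the citrate for it, gave 0.33 and -0.54, and Acacb -0.21 and 0.08. Fasn, the synthase itself, was picked after its values were seen and gave 0.18 and -0.08. Its second probe gave 0.13 and 0.48 and was higher in every LY mouse at 90 days, so no direction can be given for it there. The list's median was 0.13 at 180 days and -0.26 at 90 days.

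**Figure D4:**
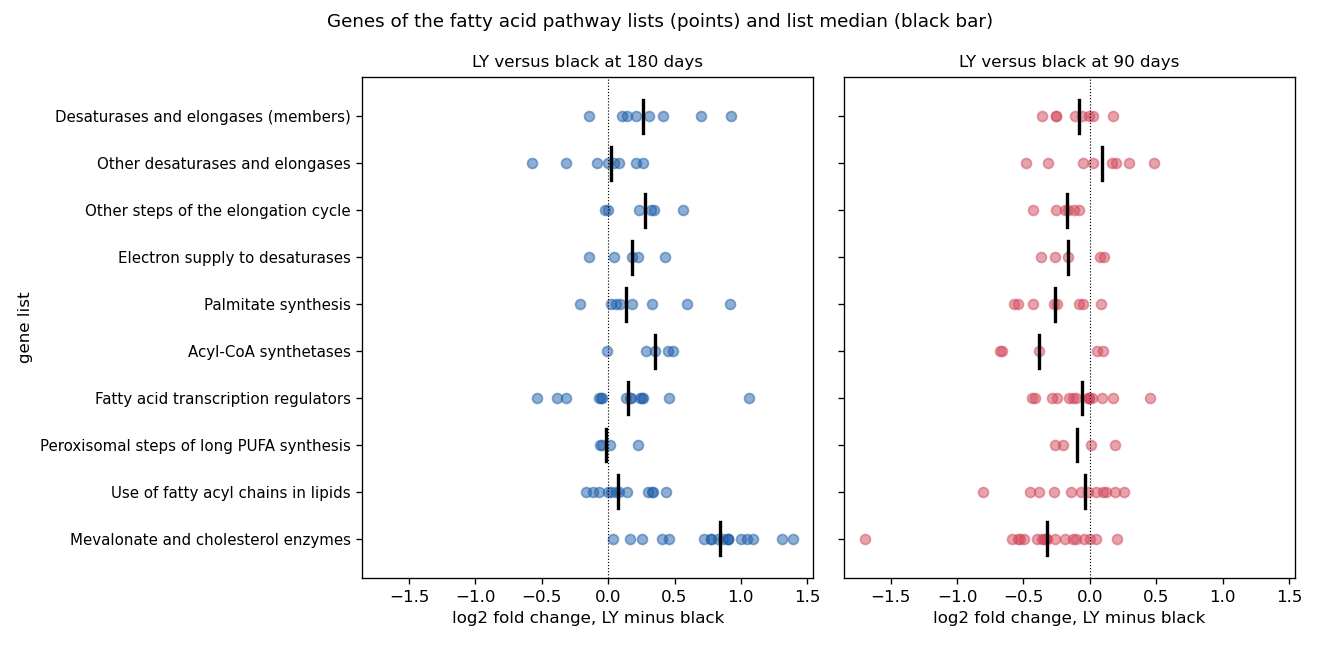
Log2 fold change of LY minus black mice (x axis) at 180 days (left) and 90 days (right) for each tested gene (points) of 10 gene lists (y axis), with the list median (black bar). The median of the desaturases and elongases described here is 0.26 at 180 days and -0.08 at 90 days.

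The acyl-CoA synthetases, which activate fatty acids and acetate before use, had a median log2 difference of 0.36 at 180 days and -0.38 at 90 days over 5 genes. None passed in limma. At an unadjusted p under 0.05 limma took 2 as higher in LY mice at 180 days (7.05% of all probes). At 90 days it took 3 as lower (8.06% of probes). The methods' t-test took 1 as higher and 2 as lower at these ages (9.1% and 5.63% of probes). Acss2, which activates acetate, read 2.79, 2.17 and 2.27 units in LY mice of 180 days and 1.64, 1.68 and 1.94 units in black mice. At 90 days it read 2.93, 3.09 and 4.03 units in LY mice and 5.09, 5.68 and 5.18 units in black mice. The groups did not overlap at either age, and the direction was opposite, with log2 differences of 0.45 and -0.68. Acsl3, Acsl4 and Acsl5 gave 0.49, 0.36 and 0.28 at 180 days.

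Of 14 regulators of fatty acid genes, 0 passed in limma at 180 days. At an unadjusted p under 0.05 limma took 3, of which 2 were higher in LY mice (likewise 3 and 2 by the methods' t-test). Of all probes, limma took 7.05% as higher and 4.91% as lower at that unadjusted p. Srebf2, the SREBP that mainly drives cholesterol genes, read 4.00, 3.92 and 3.78 units in LY mice of 180 days and 2.94, 2.81 and 2.75 units in black mice. At 90 days it read 2.09, 2.35 and 2.38 units in LY mice and 2.72, 3.40 and 3.10 units in black mice. Its groups did not overlap at either age, with log2 differences of 0.46 (adjusted p = 0.133 in limma) and -0.43 (adjusted p = 0.114 in limma). The change with age was 0.90 (adjusted p = 0.0787 in limma), and a second probe gave 0.29 and -0.51 at the 2 ages. Srebf1, the SREBP that drives desaturase and elongase genes in liver, was picked after its values were seen and did not separate the genotypes. It read 0.444, 0.476 and 0.633 units in LY mice of 180 days and 0.668, 0.458 and 0.507 units in black mice, with a log2 difference of -0.07 and an interval of -0.49 to 0.35.

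Insig1, which holds SREBP in the endoplasmic reticulum and is itself an SREBP target, gave a log2 difference of 1.06 at 180 days (adjusted p = 0.305 in limma), on values near the limit of sensitivity that overlapped between the genotypes. Mbtps1, a protease that releases SREBP, gave -0.54 and its second probe -0.03, and Rxra gave 0.27 and its second probe -0.15. Beyond the chain-making enzymes, 12 genes that place acyl chains into lipids had a median of 0.07 at 180 days and -0.04 at 90 days. Lpcat3, which puts arachidonate into phospholipids, gave 0.44 at 180 days (adjusted p = 0.168 in limma) and -0.39 at 90 days. The ceramide synthase Cers2 gave 0.33 and -0.27. The triglyceride enzyme Dgat1 gave 0.30 and -0.80 (adjusted p = 0.0822 in limma at 90 days), and Ptgs2, which makes prostaglandins from arachidonate, 0.33 and 0.12. Scp2, of the peroxisomal step that ends the synthesis of docosahexaenoate, gave 0.23 and -0.26, and its second probe 0.06 and -0.08. For scale, the median of 18 mevalonate and cholesterol enzymes was 0.85 at 180 days and -0.32 at 90 days. At 180 days 6 passed in limma, all higher in LY than in black mice (0.0446% of probes passed). At 90 days 0 passed. There 9 had an unadjusted p under 0.05 in limma, all lower (8.06% of probes), and 7 by the methods' t-test, also lower (5.63%).

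The nearest profiles of other genes were sought over the 12 arrays, on log2 values centred within each age, by the root mean square difference over 18885 candidate probes. Elovl5, whose own root mean square deviation was 0.21, was nearest to Glrx5 (0.07), Shkbp1 (0.07) and Zdhhc12 (0.08). All 3 had positive log2 differences at 180 days and negative ones at 90 days, which follows from choosing them by nearness to Elovl5. Elovl1 was nearest to Polr2l, Cers4 and Rab29, at 0.06 to 0.07. Fads1 was nearest to Pcx (0.13), the mitochondrial enzyme that makes oxaloacetate, to Mvk (0.13) of the mevalonate pathway, and to Olfr26 (0.14). The nearest probes to Fads2 were Tbata, Aqp2 and Sptb, at 0.20 to 0.23, which was loose beside its own deviation of 0.49. For the 4 genes with little difference between the genotypes, the nearest profiles were Rhbdf2 for Scd1, Cdc42ep4 for Scd2, Parp6 for Elovl6 and Wipf1 for Elovl7.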

How the data were processed

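Ovarian RNA of 12 mice was hybridised to 1 CodeLink array per mouse. The deposited values are relative intensity units: the authors acquired images with GenePix, corrected background with the CodeLink software and normalised each slide to its 50th percentile in GeneSpring. A further gene-by-gene median step named in the methods was not found in these values. Array medians were 1.00 at 180 days and 1.04 at 90 days, with 166 to 503 values missing and 67 to 144 negative per array. Each array was divided by its median, floored at 0.01 units and taken to log2, and fold changes are on that scale. Testing covered 31359 of 36227 probes, those averaging 0.2 units or more in any group. limma 3.58.1 in R 4.3.3 fitted 4 group means over all 12 arrays (8 residual and 2.46 prior degrees of freedom), with Benjamini-Hochberg adjustment at 0.05 over all tested probes. The scripts were tested on simulated data.

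GEO's platform annotation gave 1 gene symbol to 21615 probes, several to 681 and none to 13931. Of the 21615, 21487 matched a gene of GRCm38.p6 by identifier, and 0 names changed. The probe with the highest mean log2 level stood for its gene and is called the main probe. Named genes were all 8 members, up to 4 genes of each pathway list with the lowest unadjusted p at 180 days and any past the threshold, up to 3 brightest genes of each marker list, agouti, Raly, and the 3 nearest profiles of each member, with exceptions named in the text. The members and lists were chosen with earlier results of these data known. The number of arrays limits precision, and 3 against 3 mice cannot give an exact permutation p below 0.10. Alternatives were another floor, a pseudocount, quantile normalisation, other filters, an intensity trend, array weights, 6 arrays only, a replicate block, the methods' t-test, other probes, and leaving out each array.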

Additional observations from a re-analysis of the deposited data

Results flagged for a closer look

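Among the fatty acid genes named above, 12 had all 3 LY mice above the black mice at 180 days and all 3 below them at 90 days. Of all probes, 1.82% showed this pattern. The 12 were 2 of the 8 genes described here, 1 of 6 elongation cycle genes, 2 of 8 of palmitate synthesis and 3 of 5 acyl-CoA synthetases. They were also 1 of 14 regulators, 1 of 4 peroxisomal genes and 2 of 12 that use acyl chains. Of the 8 other desaturases and elongases and the 5 electron supply genes, 0 showed it. The 12 genes were picked for that pattern, most of them from genes named for a low p at 180 days. The sign of the difference between the ages was therefore fixed by the choice, and the values are a description. The log2 difference at 180 days minus that at 90 days was 0.77 for Elovl5 and 0.57 for Elovl1. After quantile normalization Elovl1 overlapped between the genotypes at 90 days. Me1, of NADPH supply, gave 1.19 and the citrate carrier Slc25a1 0.87. The acyl-CoA synthetases Acss2, Acsl4 and Acsl5 gave 1.13, 1.02 and 0.67, and Srebf2 gave 0.90. Tecr of the elongation cycle gave 0.44, and 0.11 after quantile normalization. The peroxisomal Scp2 gave 0.49, but its second probe gave 0.14 and overlapped between the genotypes at both ages. Lpcat3 and Cers2, which place acyl chains into phospholipids and ceramides, gave 0.83 and 0.60. None of the 12 passed the adjusted threshold in limma. The pattern was not confined to fatty acid genes, since 8 of 18 mevalonate and cholesterol enzymes showed it. Of 5 theca markers 1 did, Cyp11a1, with 0.86. Single mice that stand apart were not tested for, since each group holds 3.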

How the results depend on the processing

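The number of probes past the threshold moved with nearly every choice. That of the 8 genes stayed at 0 in each genotype comparison under all alternatives with an adjusted p but 1. With an intensity trend Elovl5 passed for the difference between the ages (1 of the 8). At 180 days 14 probes passed; a floor of 0.2 units gave 52, a pseudocount 33, no filter 1, a mean of at least 0.2 units in every group 34, the intensity trend 111, array weights 146 and the 6 arrays of that age 2. At 90 days, with 14, these gave 132, 25, 4, 118, 200, 3 and 2. For the difference between the ages, with 0, the floor gave 18, the pseudocount 21, quantile normalization 2, the stricter filter 55, the trend 198 and weights 2. Over both ages, with 2, the floor gave 56, the pseudocount 14, no filter 1, the stricter filter 51, the trend 95 and weights 32. The methods' t-test took 4189 and 2766 probes unadjusted at 180 and 90 days, and 0 and 1 after Benjamini-Hochberg adjustment. Of the 8 genes it took 3 and 2 unadjusted, and 0 at both ages after adjustment. Leaving out single arrays gave 1 to 21, 1 to 66, 0 to 35 and 1 to 6 in these 4 comparisons. The cause was not tested.

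Some directions turned. Quantile normalization gave 0.024 for Elovl6, 0.044 for Elovl7, 0.0029 for Tecr, 0.0038 for Fasn and 0.012 for Rxra at 90 days, 0.012 for Scd1 and -0.020 for Elovl5 over both ages, and -0.75 for Elovl6 between the ages in LY mice. With it 1 of the 8 genes was higher and 1 lower without overlap at 90 days. Array weights gave -0.039 for Fads1 and 0.012 for Elovl7 at 90 days and 0.0030 for Scd1 over both ages. The second Elovl7 probe gave 0.22 at 180 days, 0.42 for the difference between ages, 0.013 over both ages, -0.16 between ages in LY mice and -0.58 in black mice, and the mean of its probes 0.039, 0.14 and -0.11 at 180 days, for the difference and in black mice.

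Leaving out single arrays turned the sign of Srebf1 (-0.23 to 0.085), Scd1 (-0.022 to 0.18) and Fads3 (-0.050 to 0.15) at 180 days. At 90 days it turned Elovl7 (-0.073 to 0.052), Mbtps1 (-0.18 to 0.18), Fasn (-0.20 to 0.013), Insig1 (-0.056 to 0.035), Rxra (-0.11 to 0.080), Fads1 (-0.068 to 0.11), Srebf1 (-0.26 to 0.035) and Acacb (-0.0041 to 0.19). Over both ages it turned Scd1 (-0.066 to 0.036), Elovl1 (-0.017 to 0.070), Elovl5 (-0.0024 to 0.054) and Scd2 (-0.12 to 0.0050), and between ages Elovl6 in black mice (-0.25 to 0.046). The genes higher without overlap at 90 days were 0 to 1. Those counts without overlap were added after seeing the data.

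Mice share only a replicate number: deviations of same-numbered mice correlated at -0.07 to 0.15, and of others at -0.16 to 0.12. A replicate block gave 3 probes at 180 days, 2 at 90 days and 1 over both ages. With it the calls of Me1 at 180 days (adjusted p = 0.0742 in limma) and of Fads1 between ages in LY mice (0.0579) were lost.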
